A study of Mus musculus with 7 samples.

Results

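The interleukin 1 family genes described here were 5 ligand genes (Il1f9, Il33, Il1a, Il1b and Il18), the gene of the receptor antagonist Il1rn, and 4 receptor genes (Il1r1, Il1rl2, Il1rl1 and Il1rap). They were taken by symbol as a named list of 10 of the 46603 gene rows, and 8 of the 10 held enough reads to be tested. The list was selected on CPM and fold changes between fusion and empty vector libraries, since results of that comparison were known when it was put forward, so the members' own differences in that comparison are given as a description without p-values. TRAMP-C1 is a cell line from a prostate tumour of the C57BL/6-TgN(TRAMP)8247Ng mouse, whose transgene drives prostate tumours. Polyadenylated RNA was read in 3 libraries of cells transduced with lentivirus carrying a PAX8-NFE2L2 fusion gene, 3 libraries of cells given the matching empty vector, and 1 library labelled WT. In the fusion, sequence of the transcription factor PAX8 is joined to NFE2L2, the gene of the antioxidant regulator NRF2. All libraries came from the same cell line, the labels describe virus for 12 h and another 24 h in fresh medium, and they do not say whether the WT cells met virus. The question the submitters posed was how fusion-expressing cells differ in expression from cells with the empty vector.

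Interleukin 1 family ligands signal through pairs of receptor chains, a chain that binds the ligand and the accessory chain Il1rap that several of them share, and the pair recruits MyD88 and IRAK kinases to activate NF-kB and MAP kinases. The receptor antagonist Il1rn occupies Il1r1 without starting a signal. In epithelium and stroma these cytokines act as alarm signals: Il33 is held in the nucleus and released from damaged cells, and the Il36 cytokines, of which Il1f9 (also called Il36g) is a member, act mainly in epithelia through Il1rl2.

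Gene counts per library ran between 26368182 and 59597170. The libraries numbered 1 and 2 and the WT library came from sequencing lanes 5 and 6, fusion library 3 from lane 2 and empty vector library 3 from lane 1, and fusion library 3 was the shallowest. PAX8 is the first part of the construct, and reads counted on the mouse gene Pax8 may come from the construct or the cells' own gene. They stood at 6.40, 8.53 and 5.57 CPM (counts per 1000000 gene reads, scaled between libraries) in fusion libraries 1, 2 and 3. In empty vector libraries they stood at 0.0334, 0.0358 and 0.217 CPM and in WT at 0.0401 CPM (log2 fold change of fusion over empty vector 6.25, SE 0.65, edgeR adjusted p = 0.0033). Nfe2l2, which the cells express themselves, measured 145, 141 and 123 CPM in fusion libraries, against 125, 121 and 111 CPM in empty vector libraries and 120.1 CPM in WT (0.19, edgeR adjusted p = 0.89). The label names the cells as prostate epithelial, while the epithelial markers Epcam, Cdh1, Krt8 and Krt5 were each under 4 CPM in every library and the mesenchymal list summed to 13629 to 20539 CPM with the fusion, 14119 to 23353 CPM with empty vector and 23443 CPM in WT. The prostate epithelial list summed to 117 to 155 CPM with the fusion, 93.0 to 112 CPM with empty vector and 157 CPM in WT. Of its 12 genes 8 were tested, and 2, Krt18 and Foxa1, were called higher with the fusion, beside 1.69% of all tested genes. Without fusion library 1 or 2 or without empty vector library 2 both calls were lost, and without empty vector library 1 that of Krt18. With the replicate block Cdh1 was called higher as well (edgeR adjusted p = 0.022, against 0.23 without the block). Of the mesenchymal list the block called Col3a1 lower (log2 fold change -0.87, edgeR adjusted p = 0.025, against 0.19 without it). All fusion libraries stood below all empty vector libraries for Col3a1. Leukocyte markers summed to 62.2 to 88.2 CPM in fusion libraries, above 30.1 to 32.8 CPM in empty vector libraries and 32.1 CPM in WT. Most of that sum was Cd14. Of the 9 markers 3 were tested and Cd14 alone was called, a call lost without fusion library 2 or empty vector library 1 or 2. Adgre1 and S100a9 had 0 reads throughout and Ptprc had at most 13 reads in a library. The part of these marker differences in the results was not tested. Mast cell and innate lymphoid markers, whose cells carry Il1rl1, summed to 2.88 to 8.40 CPM with the fusion, 4.03 to 8.15 CPM with empty vector and 4.33 CPM in WT, and Mcpt4 and Tpsb2 had 0 reads. Gata3 made up most of this sum, at 3.12, 7.95 and 1.95 CPM in fusion libraries, 3.33, 7.63 and 4.81 CPM in empty vector libraries and 2.49 CPM in WT. Nothing in the labels says that libraries of a group were separate cultures, so the errors measure the spread between these libraries, which may be technical.

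In every fusion library Il1f9, Il1rl1, Il1rn and Il1rl2 stood above every empty vector library, Il1r1 stood below, and Il33, Il18 and Il1rap overlapped between the groups. Across all 16731 tested genes 9.15% had every fusion library above every empty vector library and 6.66% the reverse. By edgeR's quasi-likelihood test with Benjamini-Hochberg adjustment 2 of the 8 tested members, Il1f9 and Il1rl1, passed 0.05, both higher, where 2.04% of all tested genes passed. With the replicate number as a block, which the libraries' shared deviations allow, Il1rn and Il1rl2 passed too, which made 4 members beside 13.1% of all tested genes. With libraries 1 and 2 of each group alone, 2 members passed, beside 1.92% of genes. These shares are not read as support, since the comparison itself chose the genes. The median log2 fold change of the 8 tested members was 0.39, beside 0.01 over all tested genes.

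**Figure D1:**
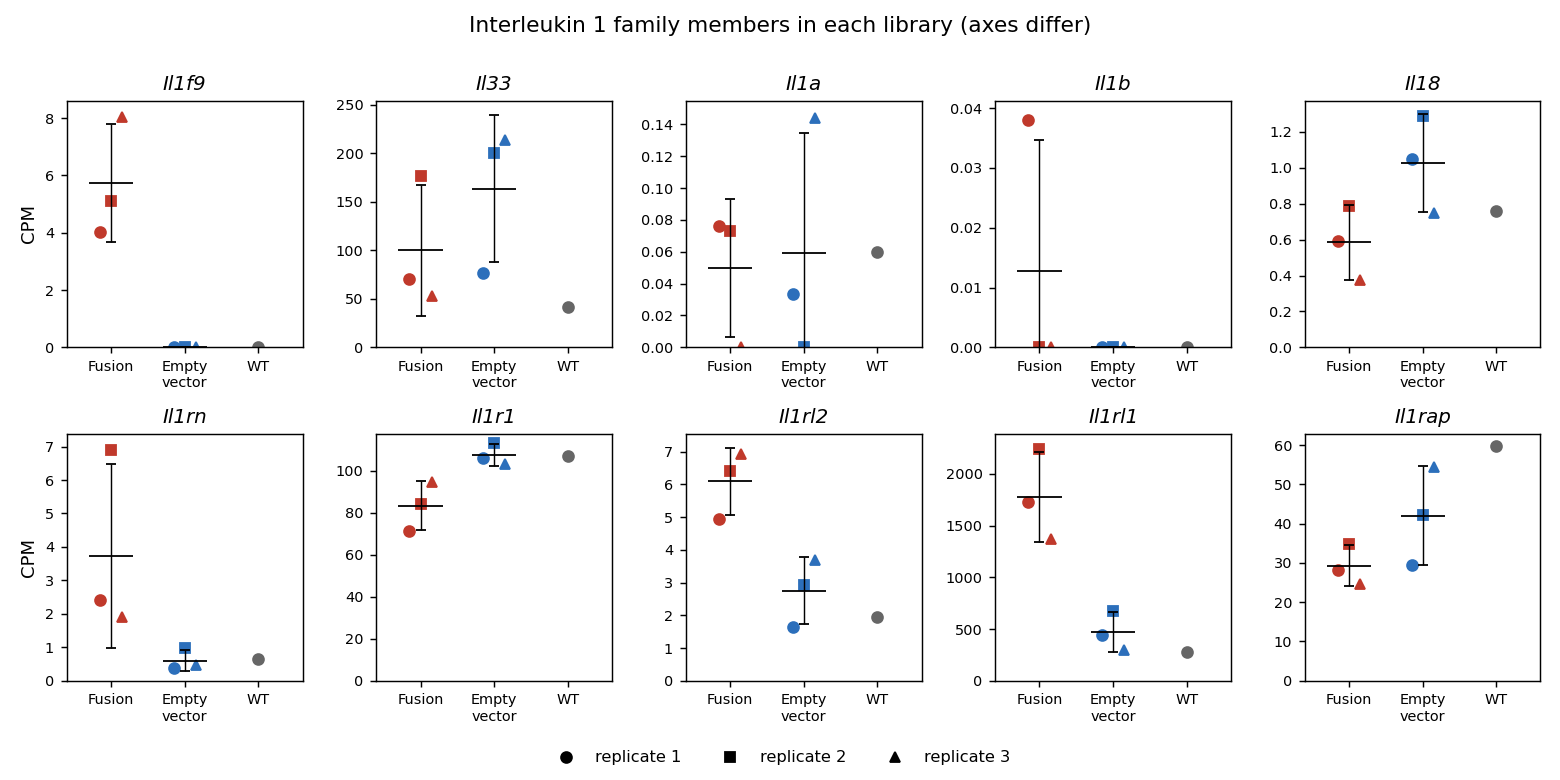
CPM of the 10 members (vertical axes, which differ between panels) in fusion, empty vector and WT libraries, with the replicate number shown by the point's shape and the mean and SD of 3 libraries drawn for fusion and empty vector. Il1f9, Il1rn, Il1rl2 and Il1rl1 separated upward in fusion libraries, and Il1f9 was at 0 in all empty vector and WT libraries.

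The stretches just before the transcription starts of the 4 members that were higher in every fusion library are printed because NRF2 and PAX8 are DNA-binding factors and because Il1rl1 and Il1rn each have several starts that counts per gene do not separate. RefSeq promoter entries of GRCm38.p6 matched 10 of 10 members with 15 windows, of which the 250 bases before the start were searched on both strands for the NRF2 core motif TGACNNNGC, the AP-1 motif TGANTCA and the NF-kB consensus. The first and the second of these share letters and can overlap, though no member window held both. The windows below are on the plus strand, written 5′ to 3′ with motif matches in capitals. They are Il1f9 (chr2:24186226-24186475), Il1rl2 (chr1:40324339-40324588), the distal and the proximal start of Il1rl1 (chr1:40429320-40429569 and chr1:40439379-40439628) and the first of 3 starts of Il1rn (chr2:24336610-24336859).
Il1f9: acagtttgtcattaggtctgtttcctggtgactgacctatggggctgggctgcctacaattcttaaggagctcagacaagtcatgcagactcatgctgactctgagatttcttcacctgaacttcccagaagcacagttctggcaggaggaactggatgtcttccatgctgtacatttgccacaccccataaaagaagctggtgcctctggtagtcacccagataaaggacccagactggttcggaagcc
Il1rl2: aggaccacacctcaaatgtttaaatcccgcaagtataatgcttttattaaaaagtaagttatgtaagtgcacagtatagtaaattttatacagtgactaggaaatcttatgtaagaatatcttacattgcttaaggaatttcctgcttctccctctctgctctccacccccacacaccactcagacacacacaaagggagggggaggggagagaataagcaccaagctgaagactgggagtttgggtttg
Il1rl1 distal: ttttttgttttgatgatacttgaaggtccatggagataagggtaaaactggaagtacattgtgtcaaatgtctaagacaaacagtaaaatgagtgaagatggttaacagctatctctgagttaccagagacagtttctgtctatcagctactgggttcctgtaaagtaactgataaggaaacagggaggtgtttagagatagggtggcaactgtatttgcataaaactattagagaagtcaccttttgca
Il1rl1 proximal: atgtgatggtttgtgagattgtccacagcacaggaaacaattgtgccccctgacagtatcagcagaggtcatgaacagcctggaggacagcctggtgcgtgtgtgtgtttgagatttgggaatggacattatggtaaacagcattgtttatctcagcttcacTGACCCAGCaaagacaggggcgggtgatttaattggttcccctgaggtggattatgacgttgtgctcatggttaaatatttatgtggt
Il1rn: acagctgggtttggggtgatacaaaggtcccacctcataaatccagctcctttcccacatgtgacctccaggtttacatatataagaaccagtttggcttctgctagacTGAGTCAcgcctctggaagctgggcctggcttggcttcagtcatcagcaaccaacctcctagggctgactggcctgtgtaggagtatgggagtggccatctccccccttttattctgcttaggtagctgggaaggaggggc
The NRF2 core motif stood in 1 of the 15 member windows, the proximal Il1rl1 window, as TGACCCAGC 88 bases before the start. It stood in 10.2% of 32851 promoter windows of the same length. The AP-1 motif stood in the Il1rn window above, 141 bases before the start, and in the window of Il1a, 12 bases before its start, against 6.75% of all windows. The NF-kB consensus stood in 1 window, of Il1r1, against 7.25% of all windows. The Il1f9, Il1rl2 and distal Il1rl1 windows held none of the 3 motifs in these letters. A match describes letters in a window and no binding was measured.

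Among the ligands, Il1f9 (ENSMUSG00000044103.4, chr2:24186476-24193568, plus strand, GRCm38) was read in fusion libraries alone. It had 212, 279 and 215 reads in fusion libraries 1, 2 and 3, against 0 reads in each empty vector library and 0 in the WT library. On the CPM scale these were 4.04, 5.11 and 8.04 CPM in the fusion libraries, with a mean of 5.73 ± 2.07 CPM (SD, n = 3). A count of 0 allows up to 3 reads, which is 0.0501, 0.0537 and 0.0722 CPM in empty vector libraries 1, 2 and 3 and 0.0601 CPM in WT, counting error alone. Against 3 reads over the empty vector group the fusion level was at least 277-fold higher. The gene passed the filter on low counts only through the fusion libraries. In bulk RNA a larger number of expressing cells and more RNA per cell cannot be told apart, here and in all results that follow.

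Il33 (chr19:29925114-29960718, plus strand), the ligand of Il1rl1, was the most abundant ligand per exon length in every library. It measured 70.1, 177 and 52.8 CPM in fusion libraries 1, 2 and 3, against 76.9, 199.8 and 214 CPM in empty vector libraries and 41.5 CPM in WT. Fusion libraries averaged 99.9 ± 67.1 CPM and empty vector libraries 163 ± 75.2 CPM (SD, n = 3 each), and the groups overlapped. The fitted log2 fold change was -0.71 (SE 0.52, 95% interval -1.90 to 0.48). Within a replicate number the fusion library held 0.911 and 0.884 of its empty vector partner for numbers 1 and 2 and 0.247 for number 3. Most of the difference in means therefore came from number 3, the libraries of other lanes, and with numbers 1 and 2 alone and the replicate block the log2 fold change was -0.14. Without fusion library 2, the highest of its group, it was -1.41. Library 2 stood above library 1 in both groups, whereas library 3 was the lowest of the fusion group and the highest of the empty vector group.

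Il18 (chr9:50554827-50581840, plus strand), which caspase-1 cuts to its active form, was close to 1 CPM. It measured 0.591, 0.787 and 0.374 CPM in fusion libraries, against 1.05, 1.29 and 0.746 CPM in empty vector libraries and 0.762 CPM in WT. The mean was 0.584 ± 0.207 CPM with the fusion and 1.03 ± 0.272 CPM with empty vector (SD, n = 3 each). The ranges overlapped by a narrow margin, since fusion library 2 lay above empty vector library 3. Each fusion library was nonetheless below the empty vector library of its number, with ratios of 0.561, 0.611 and 0.501, and the log2 fold change was -0.79 (SE 0.40, 95% interval -1.70 to 0.12).

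The classical ligands were barely read. Il1a (chr2:129299610-129309972, minus strand) had 4, 4 and 0 reads in fusion libraries, against 2, 0 and 6 reads in empty vector libraries and 3 reads in WT. Il1b (chr2:129364570-129371139, minus strand) had 2, 0 and 0 reads in fusion libraries and 0 reads in all empty vector and WT libraries. Neither was tested, and no difference was detectable at this depth, where 3 reads amount to 0.0501 to 0.112 CPM in a library. Il1a overlaps Gm14023 and Il1b overlaps Il1bos on the other strand, so even these few reads cannot be given to a strand.

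The antagonist Il1rn (chr2:24336853-24351494, plus strand) had 126, 377 and 51 reads in fusion libraries, against 22, 54 and 20 reads in empty vector libraries and 32 reads in WT. These were 2.40, 6.90 and 1.91 CPM in fusion libraries, against 0.368, 0.967 and 0.481 CPM in empty vector libraries and 0.641 CPM in WT. The lowest fusion library was above the highest empty vector library, and WT was among the empty vector values. Means were 3.74 ± 2.75 CPM with the fusion and 0.605 ± 0.318 CPM with empty vector (SD, n = 3 each), with a log2 fold change of 2.63 (SE 0.60, 95% interval 1.24 to 4.01). Fusion library 2 set much of the fusion mean, and without it the log2 fold change was 1.83. Library 2 was the high library of the empty vector group as well, and within numbers 1, 2 and 3 the fusion was 6.53, 7.14 and 3.96 times the empty vector. With the replicate block the log2 fold change was 2.54 with an SE of 0.27.

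Among the receptors, Il1rl1 (ENSMUSG00000026069.14, chr1:40429570-40465415, plus strand), also called ST2 and the receptor of Il33, was the most abundant per exon length. It held 1724, 2240.5 and 1372 CPM in fusion libraries, against 443, 678 and 295 CPM in empty vector libraries and 278 CPM in WT. Fusion libraries averaged 1779 ± 437 CPM and empty vector libraries 472 ± 193 CPM (SD, n = 3 each), and the groups did not overlap. By CPM per kb of exon its rank among the 46091 gene rows with an exon length was 80, 59 and 157 in fusion libraries, against 670, 374 and 1250 in empty vector libraries and 1416 in WT. The fusion library held 3.90, 3.31 and 4.65 times its empty vector partner for numbers 1, 2 and 3. The log2 fold change was 1.91 (SE 0.35, 95% interval 1.12 to 2.71), and with the replicate block it was 1.97 (SE 0.11). The test's call was lost when fusion library 1, fusion library 2 or empty vector library 1 was left out, with log2 fold changes between 1.67 and 2.27 over all alternatives. Il1rl1 is known to give a membrane receptor and a soluble decoy that binds Il33 without signalling, and counts per gene do not tell them apart.

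Il1rl2 (chr1:40324610-40367562, plus strand), the receptor for the Il36 cytokines and so for Il1f9, was the other receptor above empty vector. It measured 4.95, 6.41 and 6.92 CPM in fusion libraries, against 1.64, 2.94 and 3.68 CPM in empty vector libraries and 1.96 CPM in WT. The groups did not overlap, and their means were 6.09 ± 1.02 CPM with the fusion and 2.75 ± 1.03 CPM with empty vector (SD, n = 3 each). The log2 fold change was 1.15 (SE 0.35, 95% interval 0.35 to 1.95), with ratios of 3.03, 2.18 and 1.88 within numbers 1, 2 and 3.

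Il1r1 (chr1:40225080-40317257, plus strand), the signalling receptor of Il1a and Il1b, was the steadiest member among empty vector libraries. It measured 71.2, 83.9 and 94.7 CPM in fusion libraries, against 106, 113 and 103 CPM in empty vector libraries and 107 CPM in WT. Every fusion library was below the empty vector and WT values, with means of 83.3 ± 11.8 CPM and 107 ± 5.40 CPM for fusion and empty vector (SD, n = 3 each). The log2 fold change was small at -0.36 (SE 0.19, 95% interval -0.80 to 0.07), and the ratio was 0.672, 0.742 and 0.923 within numbers 1, 2 and 3.

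Il1rap (chr16:26581704-26730117, plus strand), the accessory chain that Il1r1, Il1rl2 and Il1rl1 all need to signal, was lower in each fusion library than in the empty vector library of its number. It measured 28.2, 34.9 and 24.7 CPM in fusion libraries, against 29.5, 42.2 and 54.5 CPM in empty vector libraries and 59.8 CPM in WT. The groups overlapped, the means were 29.3 ± 5.17 CPM with the fusion and 42.0 ± 12.5 CPM with empty vector (SD, n = 3 each), and the log2 fold change was -0.52 (SE 0.27, 95% interval -1.13 to 0.09). The ratio was 0.955 and 0.827 within numbers 1 and 2 and 0.454 within number 3, and with numbers 1 and 2 alone and the replicate block the log2 fold change was -0.16. Il1rap overlaps Gm20319 on the other strand.

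**Figure D2:**
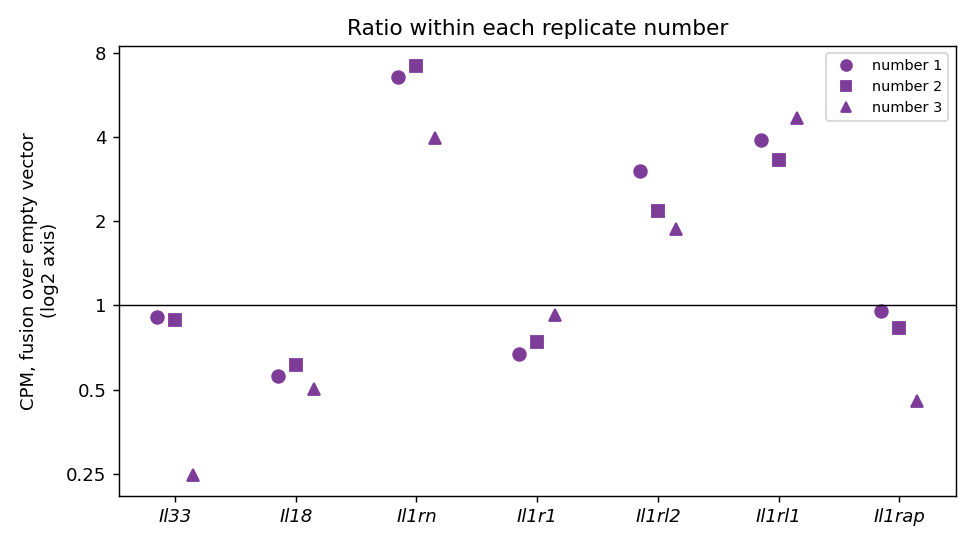
Ratio of CPM in the fusion library to CPM in the empty vector library of the same replicate number (log2 axis) for the 7 members with reads in every library. Il1rn, Il1rl2 and Il1rl1 were above 1 in all 3 numbers, and the other 4 were below 1 in all 3, with Il33 and Il1rap farthest below in number 3.

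To compare genes with each other, CPM were divided by kilobases of exon. On this scale Il1rl1 led in every group, at 258 ± 63.4 CPM per kb with the fusion, 68.5 ± 28.0 CPM per kb with empty vector (SD, n = 3 each) and 40.3 CPM per kb in WT. In fusion libraries the order of mean levels was Il1rl1, Il33, Il1r1, Il1f9, Il1rap, Il1rl2, Il1rn, Il18, Il1a and Il1b. The library ranges of Il1f9 and Il1rap overlapped there, as did those of Il1rl2 and Il1rn, of Il1rn and Il18, and of Il1a and Il1b. In empty vector libraries the order was Il1rl1, Il33, Il1r1, Il1rap, Il18, Il1rl2, Il1rn and Il1a, with Il1f9 and Il1b at 0. There Il33, at 56.6 ± 26.1 CPM per kb, overlapped with Il1rl1, while Il1rn overlapped with Il1a. The WT library had Il1r1 at 16.8 CPM per kb above Il33 at 14.4 CPM per kb, and otherwise the order of the empty vector libraries. Il1f9 thus stood at 3.48 ± 1.26 CPM per kb with the fusion, beside 0 with empty vector.

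Ratios between the RNA of receptor chains followed from these levels. They do not give the balance of the proteins, and the membrane and soluble forms of Il1rl1 were not told apart. Il1rl1 made up 85.6, 79.5 and 82.6% of the summed per-length level of the 10 members in fusion libraries, against 57.6, 51.5 and 30.8% in empty vector libraries and 51.7% in WT. The per-length level of Il1rl1 was 101, 106 and 91.4 times that of its partner chain Il1rap in fusion libraries, against 24.7, 26.5 and 8.94 times in empty vector libraries and 7.65 times in WT. The ratio of this receptor to its ligand differed likewise. The per-length level of Il1rl1 was 10.3, 5.31 and 10.9 times that of Il33 in fusion libraries, against 2.41, 1.42 and 0.579 times in empty vector libraries and 2.80 times in WT. Between the ligand-binding chains Il1r1 and Il1rl2 the per-length ratio was 15.4, 14.0 and 14.6 in fusion libraries, against 69.2, 41.2 and 29.8 in empty vector libraries and 58.4 in WT. The fusion libraries lay close together in this last ratio and below every empty vector library.

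**Figure D3:**
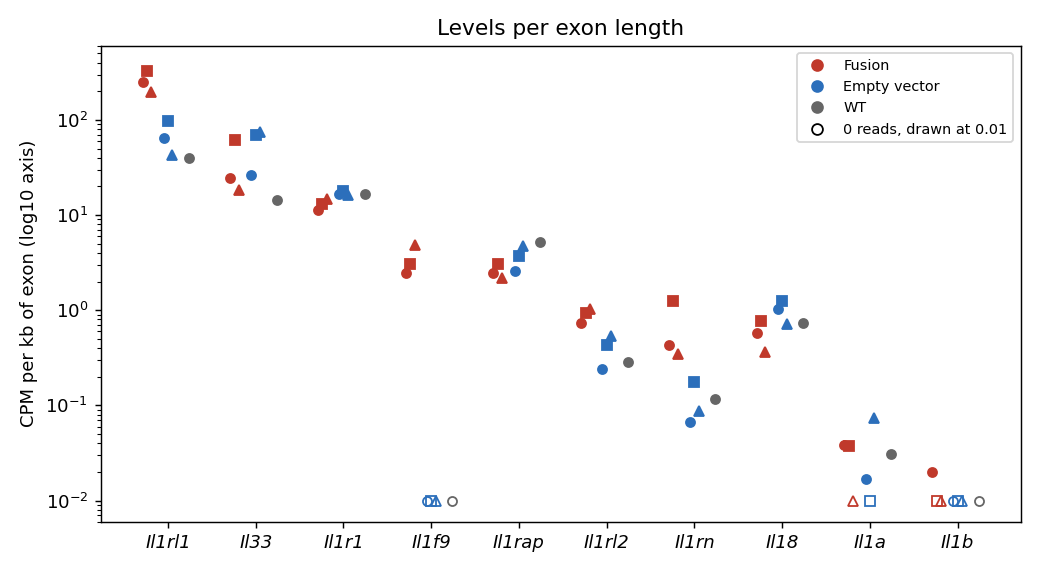
CPM per kb of exon (log10 axis) of the 10 members in fusion, empty vector and WT libraries, with point shapes giving the replicate number and open symbols at 0.01 marking 0 reads. Il1rl1 was the highest member in fusion libraries, and Il1f9 stood at the level of Il1rap in fusion libraries alone.

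The empty vector libraries were set against the WT library in a fit over all 7 libraries, which takes the spread of the unreplicated WT library to be that of the fusion and empty vector groups. By edgeR's quasi-likelihood test 0 of 16731 genes passed at an adjusted 0.05, with 746 genes at an unadjusted p under 0.05 and 77 genes, or 0.46%, called by DESeq2. No member was among those 77. With the replicate number as a block, in which the WT library is number 1, 20 genes passed, or 0.12%, and no member was among them. Il1rl1 and Il33 were above WT in all 3 empty vector libraries, which held for 21.6% of tested genes, and Il1rap was below WT in all 3, which held for 22.7%. The log2 fold change of empty vector over WT was 0.77 (95% interval -0.37 to 1.90) for Il1rl1, 1.98 (95% interval 0.07 to 3.88) for Il33 and -0.51 (95% interval -1.34 to 0.33) for Il1rap. For Il1r1 it was 0.00 (95% interval -0.61 to 0.61). With the block Il33 was at 1.23 (95% interval -0.65 to 3.11) and Il1rl1 at 0.67 (95% interval 0.24 to 1.10). This comparison shares the empty vector libraries with the fusion comparison. WT Il33, at 41.5 CPM, was below the fusion libraries too.

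Of the 11 other ligand, receptor and binding protein genes of the family, 6 were tested and 0 of them passed edgeR's test at an adjusted 0.05, with 2 lower when the replicate block was included, beside 5.5% of all tested genes called lower by that fit. Il18rap, the accessory chain for Il18, measured 22.5, 19.4 and 18.6 CPM in fusion libraries, against 29.7, 30.1 and 27.5 CPM in empty vector libraries and 31.6 CPM in WT. Its log2 fold change was -0.53 (SE 0.19, edgeR adjusted p = 0.29, and 0.020 with the block). Sigirr, a receptor that dampens signalling of the family, had 0.191, 0.385 and 0.150 CPM in fusion libraries, against 0.585, 0.895 and 0.578 CPM in empty vector libraries and 0.0802 CPM in WT. Its log2 fold change was -1.45 (edgeR adjusted p = 0.23, and 0.043 with the block), and WT was below both groups. Il18r1, the ligand-binding chain for Il18, had a log2 fold change of 1.00 (edgeR adjusted p = 0.47) at under 0.5 CPM, and the decoy receptor Il1r2 1.29 (edgeR adjusted p = 0.77) at under 0.5 CPM. Il18bp, which neutralises Il18, had a log2 fold change of -0.04 (edgeR adjusted p = 1.0) and Il1rapl1 one of -0.39 (edgeR adjusted p = 0.85). Il1f5, Il1f6, Il1f8 and Il1rapl2 had 0 reads in every library and Il1f10 had 1 read, in fusion library 1.

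**Figure D4:**
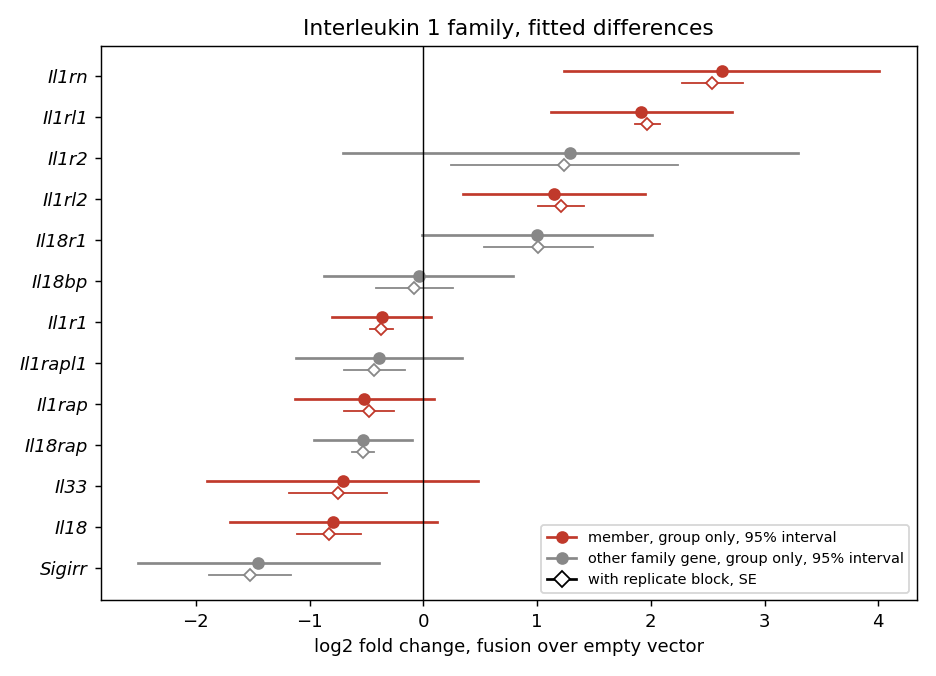
Fitted log2 fold change, fusion over empty vector, of the 7 members with reads in every library and of the 6 other tested family genes, with filled points and 95% intervals from the fit on group alone and open diamonds with SE from the fit with the replicate block. Il1rn, Il1rl1 and Il1rl2 had the highest fitted values of the members drawn, and since the members were selected on this comparison the intervals show the spread and are not a test.

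The family lies in clusters, and within each of the first 2 described here some genes stood above empty vector and others did not. On chromosome 1 the 6 receptor genes Il1r2, Il1r1, Il1rl2, Il1rl1, Il18r1 and Il18rap run along 478 kb on the plus strand. Il1rl1 ends 137 bases before Il18r1 begins, yet Il1rl1 had 249517 reads over the fusion libraries and Il18r1 had 48. Within this stretch Il1rl1, Il1rl2 and the low Il18r1 were above empty vector in all fusion libraries, Il1r1 and Il18rap were below, and Il1r2 overlapped. Il18r1 measured 0.419, 0.293 and 0.374 CPM in fusion libraries, against 0.117, 0.233 and 0.193 CPM in empty vector libraries and 0.180 CPM in WT. The flanking gene Map4k4 had a log2 fold change of 0.09 (edgeR adjusted p = 0.98) and Slc9a4, on the other flank, one of -1.88 (edgeR adjusted p = 0.20). The 4 other genes inside, Gm16894, Gm37347, Gm38070 and Gm17970, were too low to be tested.

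On chromosome 2 the ligand and antagonist genes Il1f8, Il1f9, Il1f6, Il1f5, Il1f10 and Il1rn span 198 kb. Il1f9 and Il1rn, the members above empty vector there, lie to either side of Il1f6, Il1f5 and Il1f10, which had at most 1 read in a library. The pseudogene Gm13410, just before Il1f9, had a log2 fold change of 0.26 (edgeR adjusted p = 0.96), and Gm37703, Gm13409 and Gm13411 had 0 reads. Of the flanking genes, Tbpl2 had 0 reads and Psd4 had 8 reads over the fusion libraries, 3 over the empty vector libraries and 5 in WT. The mouse gene Pax8, where reads of the construct and of the cells' own gene were not told apart, lies 69.1 kb beyond Il1rn. Il1a and Il1b lie farther along chromosome 2 within 71.5 kb, beside Ckap2l with a log2 fold change of 0.15 (edgeR adjusted p = 0.96) and F830045P16Rik with 0 reads. Gm14023, which overlaps Il1a, had a log2 fold change of 0.03 (edgeR adjusted p = 1.0) and Il1bos, which overlaps Il1b, had 1 read, while Gm25703 and Gm14039, which lie between Il1a and Il1b, had 0.

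Of 17 genes that cut or release family ligands, 11 were tested and 1, Panx1, rose with the fusion in edgeR's test, beside 1.69% of all tested genes. Panx1, a membrane channel that releases ATP, measured 27.8, 23.0 and 31.9 CPM in fusion libraries, against 7.57, 5.03 and 6.64 CPM in empty vector libraries and 6.37 CPM in WT. Means were 27.6 ± 4.46 CPM with the fusion and 6.41 ± 1.28 CPM with empty vector (SD, n = 3 each), with a log2 fold change of 2.10 (SE 0.25, edgeR adjusted p = 0.0052). With the replicate block, which called 7.63% of all tested genes higher, Casp8 was called higher too (log2 fold change 0.54, edgeR adjusted p = 0.0087, against 0.50 without the block) and Gsdmd, the pore-forming gasdermin, lower (-0.43, edgeR adjusted p = 0.018, against 0.69 without it). Nlrp3, Nlrp1a, Nlrp1b, Nlrc4, Pycard and Ctss were too low to be tested, and the list's median log2 fold change was -0.18, beside 0.01 over all tested genes.

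All 22 signalling genes below the receptors were tested and 0 passed edgeR's test at an adjusted 0.05, beside 2.04% of all tested genes. The replicate block called 3 higher, beside 7.63% of all tested genes, which were the kinase Mapk9 (log2 fold change 0.69, edgeR adjusted p = 0.0036, against 0.24 without the block), Irak3, an inhibitor of the pathway (0.87, edgeR adjusted p = 0.017, against 0.24), and the NF-kB subunit Rela (0.40, edgeR adjusted p = 0.022, against 0.58). Irak3 overlaps Tmbim4 on the other strand. The list's median log2 fold change was 0.13.

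Of 23 genes known to be induced by interleukin 1, 21 were tested, and 5 rose and 0 fell with the fusion in edgeR's test, beside 1.69% of all tested genes that rose. The list was written with the calls of some of these genes known, so its count is no independent evidence of a direction. Cxcl1, a neutrophil chemokine, measured 105, 94.1 and 114 CPM in fusion libraries, against 31.6, 43.3 and 38.3 CPM in empty vector libraries and 19.8 CPM in WT (log2 fold change 1.47, SE 0.20, edgeR adjusted p = 0.010). Cxcl5, another neutrophil chemokine, measured 186, 151 and 69.2 CPM in fusion libraries, against 18.2, 24.2 and 18.3 CPM in empty vector libraries and 30.2 CPM in WT (log2 fold change 2.74, SE 0.37, edgeR adjusted p = 0.0096). These 2 calls held with each library left out in turn and with libraries 1 and 2 of each group alone.

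The other 3 calls of this list were lost in some of the fits with a library left out. The collagenase Mmp13 measured 503, 1179 and 1214 CPM in fusion libraries, against 46.3, 136 and 141 CPM in empty vector libraries and 32.3 CPM in WT (log2 fold change 3.16, edgeR adjusted p = 0.021), and its call was lost without fusion library 2 or empty vector library 2. The gelatinase Mmp9, at 3.22, 8.37 and 5.09 CPM in fusion libraries, against 0.334, 1.20 and 0.818 CPM in empty vector libraries and 0.421 CPM in WT, had a log2 fold change of 2.83 (edgeR adjusted p = 0.042), a call lost when any library other than fusion library 1 was left out. Lcn2, which binds bacterial siderophores, had 0.667, 0.696 and 0.673 CPM in fusion libraries, against 0.100, 0.161 and 0.217 CPM in empty vector libraries and 0.0200 CPM in WT, with a log2 fold change of 2.10 (edgeR adjusted p = 0.046) whose call was lost when any of the 6 libraries was left out. In these groups the neutrophil marker S100a9 stayed at 0 while Cd14 was at 58.7, 83.9 and 63.3 CPM in fusion libraries, against 27.5, 27.9 and 30.6 CPM in empty vector libraries and 28.4 CPM in WT (edgeR adjusted p = 0.022). With the replicate block 7 genes of the list were called higher, beside 7.63% of all tested genes. Among them were Cxcl2 (log2 fold change 2.35, edgeR adjusted p = 0.048, against 0.13 without the block) and Sod2 (0.47, edgeR adjusted p = 0.019, against 0.34). With libraries 1 and 2 of each group alone 2 genes of the list were called higher, beside 1.92% of genes called in either direction. The list's median log2 fold change was 0.38, beside 0.01 over all tested genes. Fitted values were above 0 for 15 of the 21 tested genes, some of them close to 0, such as Nfkbia at 0.07 and Tnfaip3 at 0.09. Others were below 0, such as Nfkbiz at -0.52 and Il6 at -1.18, and none of these 4 was called. Empty vector library 3 was the highest library for Nfkbiz, at 55.9 CPM, and for Il6, at 4.26 CPM. Within numbers 1, 2 and 3 the ratio of fusion to empty vector was 0.987, 0.882 and 0.482 for Nfkbiz. For Il6 it was 1.52, 0.346 and 0.369.

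**Figure D5:**
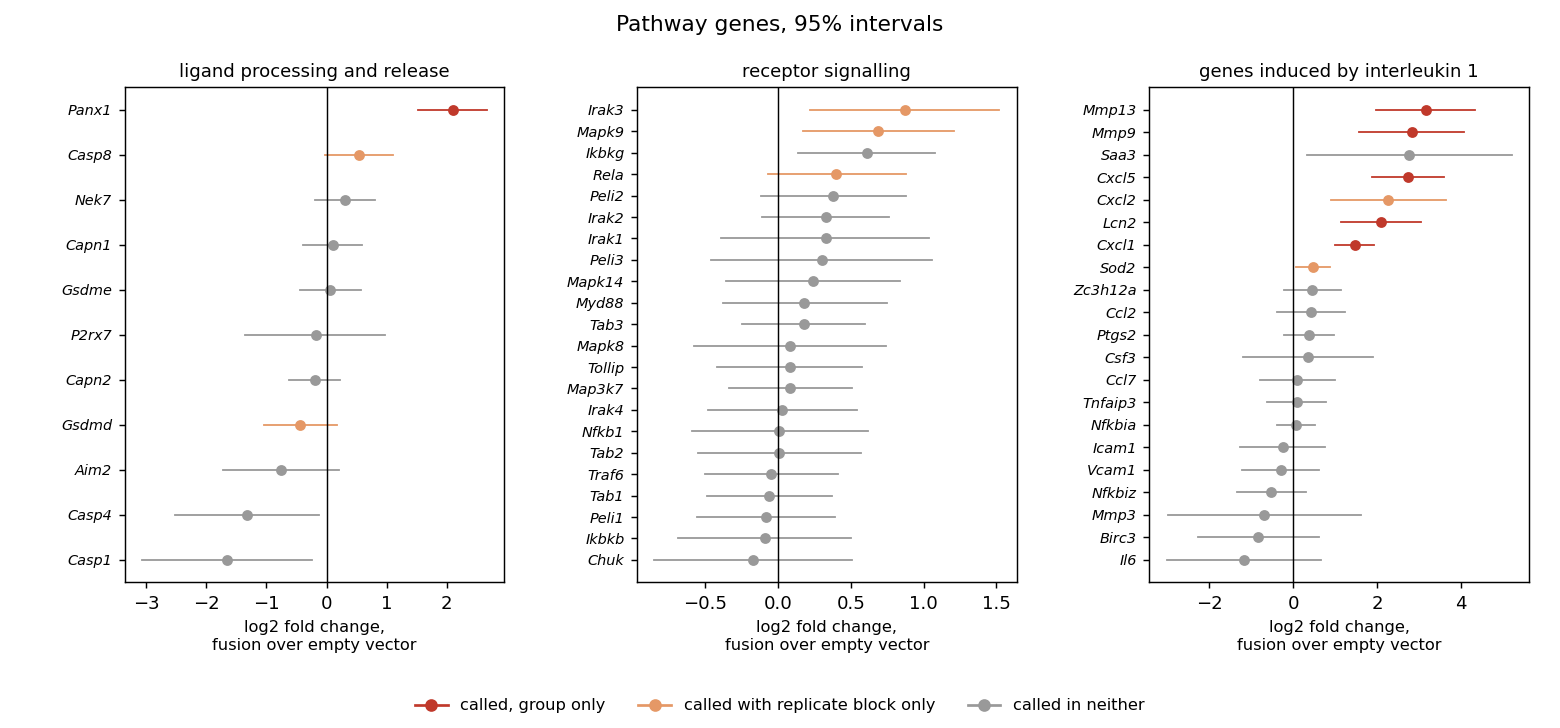
Log2 fold change, fusion over empty vector, with 95% intervals for the tested genes of the ligand processing, receptor signalling and induced gene lists (horizontal axes differ), coloured by whether edgeR's test called the gene on group alone, with the replicate block only, or in neither. The called genes on group alone were Panx1 in the first list and Mmp13, Mmp9, Cxcl5, Lcn2 and Cxcl1 in the last.

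The genes whose log2(CPM + 0.5) followed Il1rl1 most closely over the 7 libraries were B3galnt2 (r = 0.998), Slc48a1 (r = 0.992), Elovl7 (r = 0.988), H6pd (r = 0.987) and Traf1 (r = 0.987), among 83 genes with r above 0.95. H6pd, which makes NADPH in the endoplasmic reticulum, measured 348, 473 and 259.9 CPM in fusion libraries, against 106, 149 and 84.2 CPM in empty vector libraries and 95.7 CPM in WT. As with Il1rl1, library 2 was the high one and library 3 the low one in both groups. For Il1f9 the closest were Cpn1 (r = 1.00), Mro, Sp8, Krt83 and Gsta1 (r = 0.999 each), among 175 genes with r above 0.95. Cpn1 measured 11.4, 16.4 and 25.8 CPM in fusion libraries and 0 in every empty vector and WT library. Such values describe 7 libraries that fall into separate groups.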

How the data were processed

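Polyadenylated RNA of 7 TRAMP-C1 libraries was measured as single-end reads of 50 bp. The deposited tables, 1 per sequencing lane, hold counts of whole reads for each gene, which the authors made with STAR, HTSeq and the build GRCm38, per the submitters' processing notes. The strand setting, annotation release and tool versions are not given in the sources used, so a gene cannot be told from an overlapping one on the other strand, and reads with several alignments (36.096 to 45.323% of a library) are under no gene, which can undercount near-identical paralogs.

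The 12 lane tables were summed per library, since they agreed within sampling noise (chi-square over its degrees of freedom 0.978 to 1.01), unlike libraries of a group (107.9 to 311.2). Rows naming no gene were left out (no feature 5.726 to 6.927%, ambiguous 1.222 to 1.479%). Symbols and positions come from GENCODE M21 for 46091 of 46603 rows, and promoter windows from RefSeq GRCm38.p6.

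Fusion and empty vector libraries were compared with edgeR 4.0.16 in R 4.3.3 (TMM, filterByExpr with a minimum count of 10, robust quasi-likelihood F test, Benjamini-Hochberg at 0.05 over 16731 genes), and empty vector with WT in a fit of all 7 libraries. DESeq2 1.42.0, other size factors, no filter, a replicate block and each library left out in turn were alternatives. The statistics were tested on simulated data. CPM use TMM factors over 7 libraries. A count of 0 is given a limit of 3 counts, and such limits cover counting error only, as the reads carry no molecular identifiers.

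Replicate numbers are shared between the groups. Deviations from group means correlated within numbers 1, 2 and 3 (r = 0.659, 0.63 and 0.61 over genes), so the numbers were taken to pair the libraries. Between numbers r was -0.0474 to -0.53. Deviations in a group of 3 libraries sum to 0, so positive values within numbers force negative ones between numbers on average. The negative values are therefore no separate evidence of pairing. No label names a batch, so the pairing rests on the correlations within numbers. The main fit leaves it out, and the block is given where it changes a call.

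The members and all lists were chosen with earlier results of these data known. Named genes are all members, genes of the pathway lists called with or without the block (at most 6 per list, by smallest p), genes inside and beside the family's clusters, the 5 genes most correlated with Il1rl1 and with Il1f9, and the construct genes. Beyond this rule Sod2, Nfkbia, Tnfaip3, Nfkbiz and Il6 of the induced list are named.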

Additional observations from a re-analysis of the deposited data

How the results depend on the processing

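For fusion against empty vector, 341 genes passed (282 higher, 59 lower). The count was 922 with DESeq2, 530 with no filter on low counts, 346 with other size factors and 139 to 373 with each library left out in turn. The fit with the replicate block called 2196. In fits added after seeing the data, libraries 1 and 2 of each group alone gave 321, or 3276 with the block. For empty vector against WT, 0 genes passed, with 77 in DESeq2, 15 with no filter and 0 to 5 with each library left out, the 5 without fusion library 3. A replicate block with the WT library as number 1, added after seeing the data, gave 20, and whether that number pairs the WT library was not tested. No member's log2 fold change turned sign in the fusion comparison. Under the alternatives 81 of these values moved by less than the spread between replicates and 3 by more, which were Il1rn at 1.83 and Il18 at -1.07 without fusion library 2, and Il1rap at -0.16 with libraries 1 and 2 and the block. For empty vector against WT, Il1rl2 alone moved by more, to -0.05 with the block. Il1rl1 was called in 10 of 13 fits and ranged between 1.67 and 2.27. Il1rn was called in 5, Il1rl2 in 3 and Il1r1 in 1. The members were selected on fusion against empty vector, so these counts of fits describe the processing and are not read as support. The replicate block called Il1rn, Il1rl2, Il18rap, Sigirr, Casp8, Gsdmd, Mapk9, Irak3, Rela, Cxcl2, Sod2, Cdh1 and Col3a1 where the fit without it did not. Depth limits Il1a, Il1b and the unread family genes, for which 3 reads are 0.0501 to 0.112 CPM.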
